A study of Mus musculus with 22 samples.

Results

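RiboTag libraries of 2 glial types and 4 neuronal types from the mouse brain were compared gene by gene to find the mRNAs that astrocytes and microglia share against every neuronal population. In the RiboTag method, a ribosomal protein is epitope-tagged in the cells that express Cre recombinase, and the mRNA bound to tagged ribosomes is sequenced (the translatome). Of 55385 genes in the files, 20524 passed a filter on low counts and were tested. Among those, 2605 genes lay higher in every one of 6 glial libraries than in every one of 12 neuronal libraries (12.7% of genes tested), and 2325 lay lower in every glial library than in every neuronal library (11.3%). These sets are called the glial set and the neuronal set here, and the remaining 15594 genes overlapped between the classes. Both sets were chosen by these levels, so the glial-neuronal difference of their members is a description and was not tested again.

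Every mouse was 6 weeks old, carried 1 floxed copy of the RiboTag allele (Rpl22 Fl/+) and expressed Cre from a driver line. Rbp4-Cre was used for dentate gyrus granule cells from hippocampus and for layer V neurons from cortex, Gabra6-Cre for cerebellar granule cells from cerebellum, and Dlx6a-Cre for inhibitory interneurons from hippocampus, where each library pooled 2 mice. Astrocytes came from cortex with the line labelled Aldh1-cre (Aldh1l1-cre/ERT2 in the study's methods), and microglia came from cortex with the line labelled Tmem119-cre (a knock-in CreERT2). There were 3 libraries of each cell type, from mice of both sexes. Microglia and interneurons were sequenced in batch 2 and the other types in batch 1, so each cell type lay in 1 batch, but each class was present in both. Cre is induced by tamoxifen in the glial lines and not in the neuronal lines, so tamoxifen and cell class cannot be told apart. Cells are labelled by where each promoter is active, which limits every group to the cells its Cre line recombines.

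Astrocytes arise from neural progenitors and keep up ion balance, transmitter uptake and blood vessel contact. Microglia are the resident phagocytes of the brain and descend from yolk sac macrophages, so the glial types share no recent lineage. Mature neurons have left the cell cycle, maintain long axons by motor-driven transport, release transmitter through SNARE proteins, and use several neuron-specific members of gene families whose other members are expressed in most cells.

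Estimated counts per library ranged from 38270477 to 71440915. Levels are given in CPM, the gene's counts relative to the library total after scaling by the TMM factors of edgeR, and differences as log2 fold changes with their standard error. The contrast of the glial mean with the neuronal mean, with each cell type weighted equally, was fitted with edgeR's quasi-likelihood test over all genes. At an adjusted p of at most 0.05 (Benjamini-Hochberg), 9607 genes were higher in glia (46.8% of genes tested) and 7480 were lower (36.4%), so a call by the contrast of means alone says little about a gene. The stricter demand that both glial types differ from each of 4 neuronal types, in all 8 pairs, was met by 2544 genes in the higher direction (12.4%) and 2288 in the lower (11.1%). It was met by 2433 members of the glial set and by 2213 members of the neuronal set. Libraries are the replicates in these tests, and p-values measure the spread between libraries of a cell type. Over cell types as units, 2 glial among 6 types allow 15 arrangements, and the smallest exact p would be 0.067.

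Marker genes of the labelled cell types followed the labels. Snap25, a SNARE protein of transmitter release, was at 1677 to 8699 CPM (median 3907) in neurons, at 488, 610.5 and 436 CPM in the astrocyte libraries and at 183, 207 and 172 CPM in the microglial libraries. Rbfox3, the splicing factor known as NeuN, was at 243 to 1331 CPM (median 641) in neurons, at 100.0, 108 and 97.0 CPM in astrocytes and at 84.2, 101 and 104 CPM in microglia. Neither gene overlapped between the classes, yet neither was absent from glia: the summed level of 6 neuron markers was 14.2% of the neuronal mean in astrocytes and 6.47% in microglia. In bulk libraries, RNA from a small number of other cells cannot be told apart from a low level in every cell. Rpl22, the tagged gene itself, belonged to the glial set, with 30.1 to 71.2 CPM (median 49.5) in neurons, 77.0, 82.8 and 90.4 CPM in astrocytes and 91.3, 87.8 and 86.5 CPM in microglia.

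Markers of other cell types also moved with the class. Summed over 9 endothelial markers, the level was 4.87 to 66.7 CPM in neurons, 77.8 to 100.1 in astrocytes and 478 to 727 in microglia, and 7 of 9 were in the glial set. Summed over 8 mural markers, it was 2.43 to 39.0, 195 to 208 and 338 to 439 CPM, and 8 of 8 were in the glial set. Blood markers, hemoglobin genes and leukocyte genes, summed to 7.25 to 32.1 CPM in neurons, 1595 to 3431 in astrocytes and 207 to 444 in microglia, and 7 of 8 tested were in the glial set. Fibroblast markers reached 1.57 to 114 CPM in neurons, 58.8 to 81.3 in astrocytes and 482 to 2440 in microglia, and 3 of 5 were in the glial set. Oligodendrocyte markers were highest in interneurons (3793 to 3975 CPM), against 1435 to 1651 in astrocytes and 835 to 951 in microglia, and 0 of 10 were in the glial set. None of these defining markers was at 0 in all 3 libraries of a glial type, and their part in the glial set was not tested. A choroid plexus marker sum of 1942 CPM in astrocyte replicate 1, against 16.7 and 21.3 in the other replicates, and the fibroblast sum of 2440 CPM in microglia replicate 3 set these libraries apart. Without the former the glial set had 2608 genes, and without the latter 2564.

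The glial set was further from neurons than the neuronal set was from glia. The median log2 fold change of glia over neurons was 3.36 in the glial set (quartiles 1.79 and 4.83) and -1.46 in the neuronal set (quartiles -2.16 and -0.95), beside a median of 0.18 over all genes tested. More than 4-fold differences were found for 1850 members of the glial set (71.0%) and 690 of the neuronal set (29.7%), and more than 16-fold differences for 1003 and 8. Most members of the glial set thus differed from neurons by more than most members of the neuronal set differed from glia. Summed neuron markers stood at 14.2% of the neuronal mean in astrocytes and at 6.47% in microglia. Microglial markers summed to 6.95 to 34.9 CPM in neurons against 43972 to 45828 in microglia, and astrocyte markers to 201 to 571 against 37178 to 39380 in astrocytes. The part of such residue in the difference between the sets was not tested. The median member of the neuronal set stood at 41.3% of the neuronal mean in astrocytes and at 29.3% in microglia. Protein-coding genes made up 91.7% of the glial set and 93.4% of the neuronal set, against 78.7% of all genes tested.

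**Figure D1:**
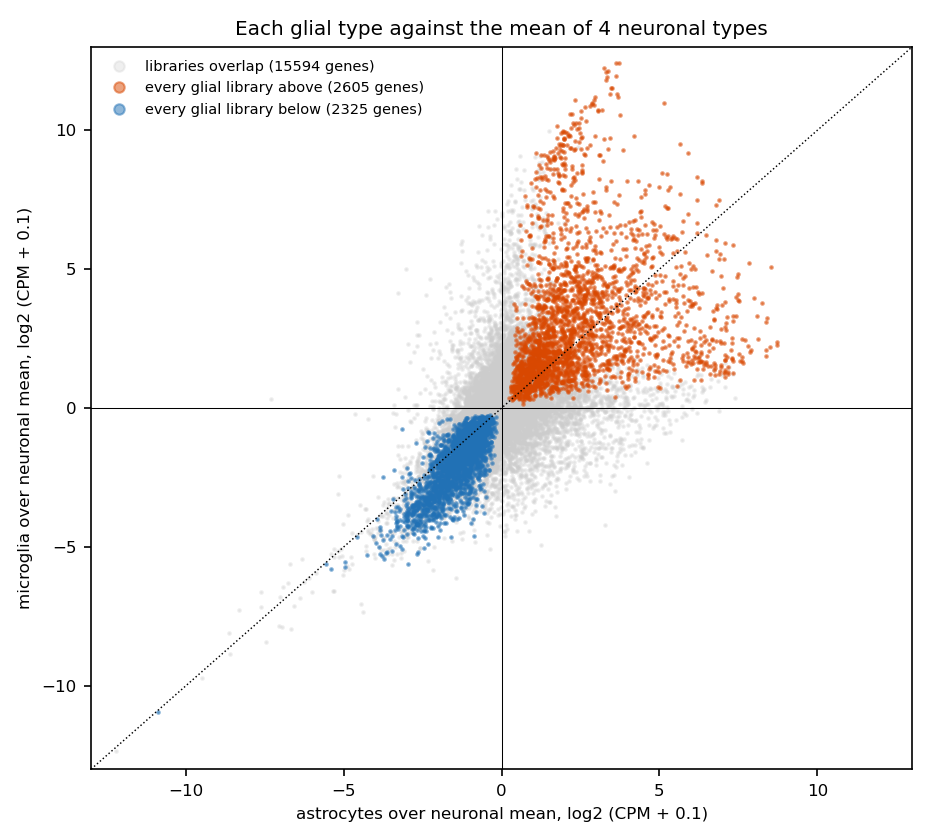
Each point is a gene tested, with its mean log2 ratio of astrocytes to the neuronal mean on the x axis and of microglia to the neuronal mean on the y axis (CPM + 0.1 in both). The 2605 members of the glial set fan out up to large ratios in either glial type, and the 2325 members of the neuronal set lie in a short, narrow cloud near the dotted line of equal ratios.

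Just inside the rule for the glial set was Kctd21, with 23.7 CPM in its lowest glial and 23.7 CPM in its highest neuronal library, and just outside was Slc35a2, whose lowest glial library (21.6 CPM) fell under its highest neuronal library (21.7 CPM). Just inside the rule for the neuronal set was Uspl1 (highest glial and lowest neuronal library both 28.0 CPM), and just outside was Ppp4r2 (63.02 against 62.98 CPM).

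The comparison of astrocytes with microglia did not enter the rule, and it was tested with the same fit. In the 18 libraries all astrocytes lay in batch 1 and all microglia in batch 2. Glial type and batch thus cannot be told apart in any test between astrocytes and microglia given here. Of the glial set, 2135 genes (82.0%) differed between the glial types at an adjusted p of at most 0.05, of which 763 were higher in astrocytes and 1372 in microglia. Of the neuronal set, 1878 (80.8%) differed, of which 1552 were higher in astrocytes and 326 in microglia. Over all genes tested, 76.1% differed in either direction, so neither set stood far from the rest by this count. The share higher in each glial type was not counted over all genes. Counts by direction, here and in the lists below, thus have no background. By size, 1184 glial set genes (45.5%) lay within 2-fold between astrocytes and microglia, and 1724 neuronal set genes (74.2%), against 53.3% of all genes tested. In the glial set, 564 genes were over 4-fold higher in microglia and 260 in astrocytes. In the neuronal set only 1 gene was over 4-fold higher in microglia and 81 were in astrocytes. Summed neuron markers were also higher in astrocytes (1003 to 1307 CPM) than in microglia (491 to 550 CPM), and the part of such residue in this order was not tested. Among neurons, interneurons were the type nearest to glia for 943 genes of the glial set (36.2%) and for 685 of the neuronal set (29.5%), and dentate gyrus granule cells for 766 and 660. The interneuron libraries also had the highest oligodendrocyte marker sum, given above, whose part in this order was not tested.

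The 15 protein-coding genes of the glial set with the widest gap between the nearest glial and the nearest neuronal type (at least 10 TPM in both glial types) had gaps of 5.16 to 6.53 log2 units. Mertk (chr2:128698956-128802894, GRCm38) encodes a receptor tyrosine kinase through which phagocytes recognise dying cells and debris. It was at 0.615 to 5.50 CPM (median 2.77) in neurons, at 325, 289 and 313 CPM in astrocytes and at 437, 472 and 409 CPM in microglia, a log2 fold change of 7.39 ± 0.083 (SE). Pdlim4 (chr11:54054928-54069014), an actin-associated adaptor, was at 0.0665 to 1.03 CPM (median 0.396) in neurons, 61.8, 60.2 and 66.8 CPM in astrocytes and 99.2, 101 and 92.9 CPM in microglia. Both glial types were thus more than an order of magnitude above each neuronal type for these genes, and microglia were the higher of the glial types (astrocytes over microglia -0.51 ± 0.11, adjusted p = 4.73e-04, and -0.63 ± 0.11, adjusted p = 5.67e-05, edgeR).

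Related RNA-binding proteins that destabilise mRNAs with AU-rich elements, Zfp36l1 and Zfp36l2, were both among these 15 genes. Zfp36l2 (chr17:84183931-84187947) was at 1.33 to 4.24 CPM (median 2.74) in neurons, 216, 221 and 219 CPM in astrocytes and 262, 254 and 196 CPM in microglia. The difference between the glial types did not pass the test for this gene (-0.12 ± 0.099, adjusted p = 0.291, edgeR). Zfp36l1 was at 0.631 to 3.16 CPM (median 1.55) in neurons, 112, 150.3 and 152 CPM in astrocytes and 186, 216 and 169 CPM in microglia. Zfp36, the founding member of the family, was also in the glial set, with a log2 fold change of 4.54 ± 0.11.

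Several of the 15 genes encode enzymes of lipid, vitamin or carbohydrate metabolism. Agmo, which cleaves ether lipids, was at 0.0185 to 0.820 CPM (median 0.170) in neurons, 30.2, 33.4 and 33.1 CPM in astrocytes and 29.3, 29.3 and 23.5 CPM in microglia. Bco2, which cleaves carotenoids, was at 0 to 0.351 CPM (median 0.185) in neurons, 20.8, 21.8 and 24.6 CPM in astrocytes and 80.8, 82.0 and 75.5 CPM in microglia. Suclg2, the subunit that makes succinyl-CoA ligase specific for guanine nucleotides, was at 0.203 to 1.52 CPM (median 1.13), 168, 174 and 197 CPM and 71.6, 65.1 and 60.8 CPM in the same order, and was higher in astrocytes than in microglia (1.45 ± 0.094, adjusted p = 1.31e-10, edgeR). Aldh1a2, which makes retinoic acid, was more variable between libraries, with 0.0226 to 0.590 CPM (median 0.195) in neurons, 11.0, 23.4 and 20.7 CPM in astrocytes and 40.5, 28.6 and 42.0 CPM in microglia. Within each glial type, Aldh1a2 had the same order over libraries as the fibroblast marker sum (58.8, 81.3 and 77.0 CPM in astrocytes, 1050, 482 and 2440 CPM in microglia), and their part in its level was not tested. Gal3st4, a sulfotransferase, and Renbp, an epimerase of acetylated amino sugars, were 10.67 and 8.47 log2 units above neurons in microglia and 6.79 and 5.89 above in astrocytes.

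Cell surface, secreted and signalling proteins made up the others. Sparc, a secreted matrix glycoprotein, was the most abundant of them, at 6.19 to 21.7 CPM (median 9.06) in neurons, 691, 647 and 692 CPM in astrocytes and 6319, 6638 and 6401 CPM in microglia. Gjb2, which encodes the gap junction protein connexin 26, was at 0.185 to 0.761 CPM (median 0.322) in neurons, 21.7, 27.7 and 27.4 CPM in astrocytes and 24.5, 16.3 and 26.1 CPM in microglia, and the glial libraries overlapped (0.20 ± 0.19, adjusted p = 0.352, edgeR). Gjb2 followed the order of the fibroblast marker sum over libraries in the same way. Tnfrsf1a, the main receptor for tumour necrosis factor, was at 0.0408 to 1.07 CPM (median 0.538) in neurons, 50.5, 44.9 and 50.5 CPM in astrocytes and 225, 223 and 198 CPM in microglia. Lfng, a glycosyltransferase that modifies Notch receptors, and Dapp1, an adaptor downstream of phosphoinositide 3-kinase, had log2 fold changes of 6.44 ± 0.11 and 8.49 ± 0.086.

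**Figure D2:**
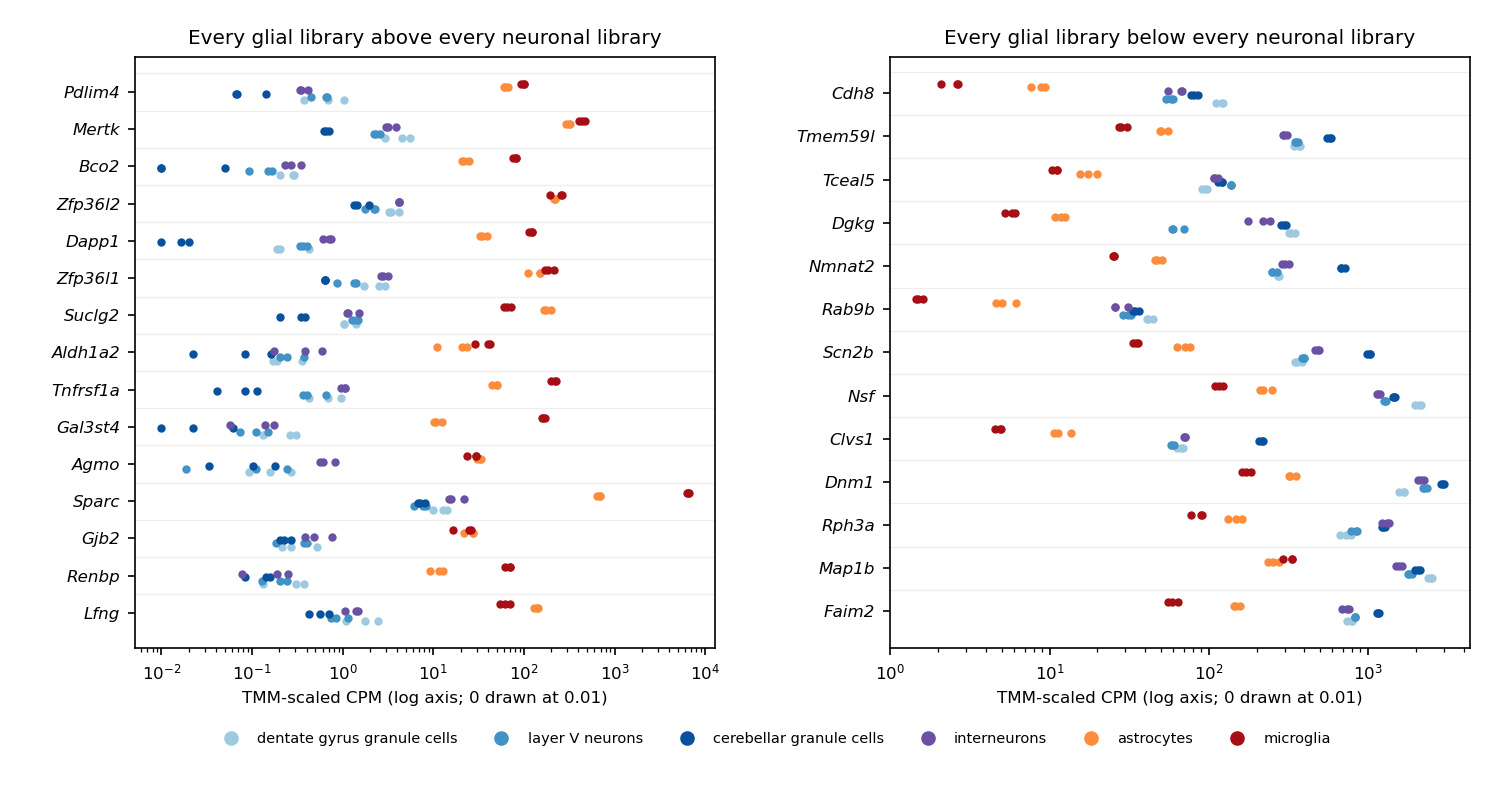
TMM-scaled CPM on a log axis in each of 18 libraries for the 15 genes with the widest gap in the glial set (left) and in the neuronal set (right), coloured by cell type, apart from genes not reported here. Glial points lie to the right of all neuronal points on the left panel and to the left of them on the right panel, and the gap is wider on the left (5.16 to 6.53 log2 units) than on the right (2.29 to 2.73).

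The 15 genes with the widest gap in the neuronal set had gaps of 2.29 to 2.73 log2 units. Cdh8 (chr8:99024471-99416471), a classical cadherin of synaptic contacts, was at 54.2 to 123 CPM (median 72.7) in neurons, 9.35, 8.85 and 7.70 CPM in astrocytes and 2.07, 2.62 and 2.65 CPM in microglia. Nmnat2 (chr1:152954993-153119261), the axonal enzyme of NAD synthesis, was at 249 to 719 CPM (median 281) in neurons, 46.3, 50.6 and 47.5 CPM in astrocytes and 25.2, 25.4 and 25.5 CPM in microglia, a log2 fold change of -3.32 ± 0.036. Dgkg, a diacylglycerol kinase, had the largest mean difference of the 15 at -4.54 ± 0.075, with 58.7 to 347 CPM (median 264) in neurons, 10.9, 12.4 and 11.8 CPM in astrocytes and 5.84, 6.09 and 5.26 CPM in microglia. For each of these 3 genes the microglial libraries lay under the astrocyte libraries.

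Nsf, the ATPase that takes apart SNARE complexes after fusion, was at 1137 to 2167 CPM (median 1366) in neurons, 211, 249 and 220.1 CPM in astrocytes and 117, 122 and 109.6 CPM in microglia. Dnm1, the dynamin of synaptic vesicle retrieval, was at 1582 to 2998 CPM (median 2243), 326, 352 and 319 CPM and 161, 185 and 171 CPM in the same order. Rph3a, an effector of Rab3 on synaptic vesicles, Clvs1, a lipid-binding protein of clathrin-coated vesicles, and Rab9b, a small GTPase, had log2 fold changes of -3.14 ± 0.055, -3.54 ± 0.049 and -3.57 ± 0.071. All 3 were lower in microglia than in astrocytes, by 0.77, 1.31 and 1.79 log2 units.

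Other members of these 15 act at the membrane, on microtubules or in cell survival. Scn2b, an auxiliary subunit of voltage-gated sodium channels, had a log2 fold change of -3.38 ± 0.043. Map1b, a microtubule-associated protein, was the exception in its order among glia, with 1511 to 2516 CPM (median 1936) in neurons, 237, 253 and 277 CPM in astrocytes and a higher 332, 332 and 293 CPM in microglia (-0.32 ± 0.063, adjusted p = 1.75e-04, edgeR). Faim2, an inhibitor of Fas-induced death, and Tceal5 had log2 fold changes of -3.19 ± 0.040 and -3.04 ± 0.046.

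Tmem59l, at 293 to 585 CPM (median 359.7) in neurons, 50.0, 55.4 and 49.3 CPM in astrocytes and 27.4, 30.8 and 28.1 CPM in microglia, is shown with its promoter because, of these 30 genes, it held the palindrome TGACGTCA, the binding sequence of CREB-type factors, before its start. The stretch (chr8:70487349-70487395, GRCm38.p6, minus strand) is shown 5′ to 3′ with the palindrome, 22 bases before the gene start, in capitals.
Tmem59l: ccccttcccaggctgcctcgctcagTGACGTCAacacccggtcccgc
Over windows of 250 bases before to 50 after the start, available from RefSeq for 12572 protein-coding genes tested, the palindrome occurred in 403 (3.21%). It occurred in 91 of 1687 windows of the neuronal set (5.39%) and in 36 of 1897 of the glial set (1.90%). A match is a description of letters and was not tested as a binding site.

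Gene lists of neuronal and glial functions were then read against these backgrounds. The lists were drawn up with earlier results of these data known, and their counts are descriptions. In the plot of shares by list, the lists of pan-neuronal, transport, cytoskeletal, RNA-binding, chromatin remodelling and proton pump genes stood above the 11.3% background for the neuronal set. The lists for signalling, adhesion, engulfment, lysosomes, cell cycle entry and repressors of neuronal genes stood above the 12.7% background for the glial set.

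**Figure D3:**
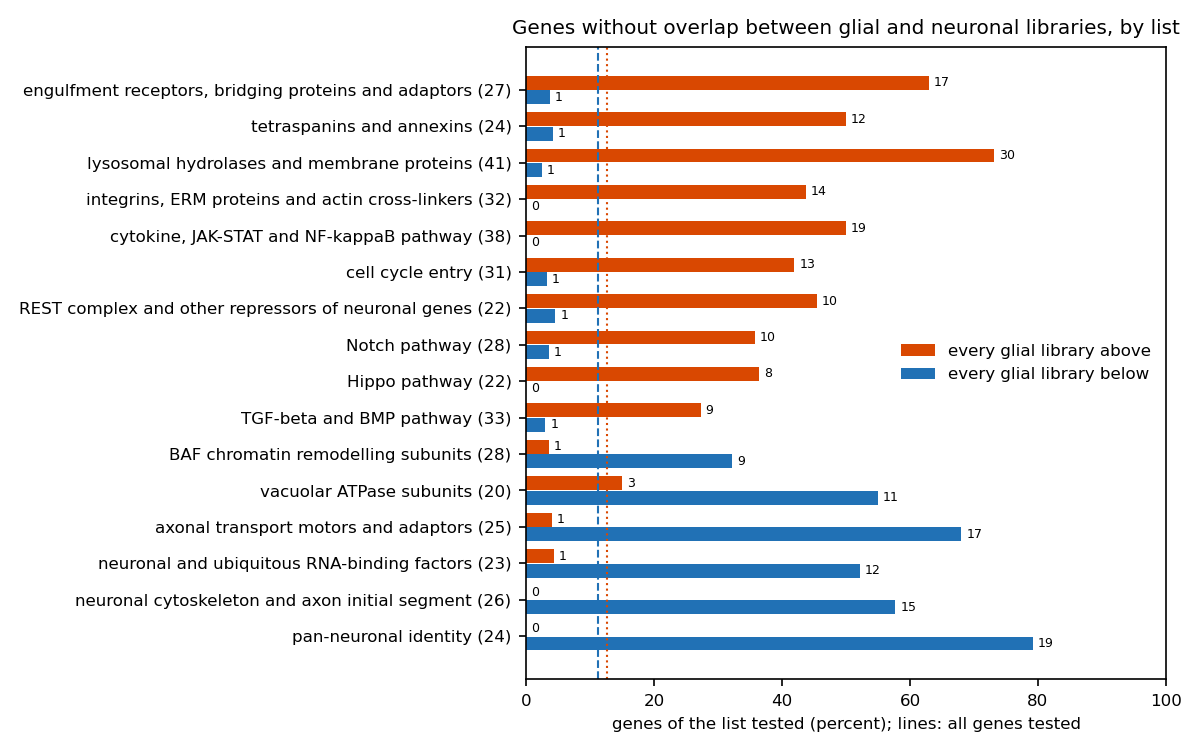
Percent of the tested genes of each list that lay in the glial set (orange) and in the neuronal set (blue), with the number of genes at each bar and the number tested in parentheses, ordered by the list's median log2 fold change. The dotted and dashed lines are the shares of all genes tested (12.7% and 11.3%), and the lists fall into a lower group with long blue bars, which includes the vacuolar ATPase, and an upper group with long orange bars, which includes the lysosomal list.

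Of 24 pan-neuronal identity genes, 24 were lower in glia by the contrast of means and 19 were in the neuronal set, with a median log2 fold change of -2.71. Syt1, the calcium sensor of release, Syn1, which tethers synaptic vesicles, and Syp, a vesicle membrane protein, had log2 fold changes of -2.93 ± 0.045, -2.86 ± 0.044 and -2.88 ± 0.046. The 5 members that overlapped between the classes were Stmn2, Elavl4, Uchl1, Thy1 and Gap43, each of which fell in the contrast (-3.15, -2.72, -2.07, -2.07 and -2.10). Microglia were lower than astrocytes for 22 of the 24 genes and higher for 0. The neuron marker residue given above was also lower in microglia, and its part in this order was not tested.

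Of 25 axonal transport motors and adaptors, 20 were lower and 17 were in the neuronal set (median -1.41). Dync1i1, a dynein intermediate chain, and Mapk8ip2, a scaffold that links cargo to kinesin, were among the lowest, at -2.97 ± 0.059 and -2.96 ± 0.033. Mapk8ip2 was at 402 to 703 CPM (median 458) in neurons, 93.9, 96.4 and 93.3 CPM in astrocytes and 40.6, 42.5 and 45.0 CPM in microglia. Kif21a was in the neuronal set at -2.45 ± 0.043 while its relative Kif21b was in the glial set at 2.75 ± 0.057, with 5.37 to 84.3 CPM (median 38.8) in neurons, 127, 118 and 150.0 CPM in astrocytes and 262, 282 and 217 CPM in microglia. These related kinesin-4 motors thus lay in opposite sets. Of the kinesin-1 heavy chains, Kif5c was in the neuronal set (-2.38 ± 0.046), Kif5b was called higher (0.32 ± 0.036), and Kif5a did not pass the test (0.070 ± 0.060, adjusted p = 0.283, edgeR) and had the opposite sign against layer V neurons alone (-0.20).

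Of 26 genes of the neuronal cytoskeleton and axon initial segment, 22 were lower, 4 higher and 15 in the neuronal set (median -1.97). Ina, a neuronal intermediate filament, was at 251 to 749 CPM (median 401) in neurons, 55.4, 59.6 and 57.8 CPM in astrocytes and 32.0, 34.9 and 32.5 CPM in microglia. Ank3, the organiser of the axon initial segment, was in the neuronal set at -1.52 ± 0.076, whereas Ank2 was called higher at 0.58 ± 0.079. Tubb2b, a beta-tubulin, was called higher at 3.19 ± 0.067, with 5.29 in astrocytes and 1.09 in microglia, and Sptbn1, the widely expressed beta-spectrin, at 1.01 ± 0.12. Map2 was lower in microglia (-3.46) than in astrocytes (-1.05).

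Regulators of the neuronal programme were divided between the sets. REST represses neuronal genes outside neurons by recruiting corepressors to RE1 elements. Rest itself (chr5:77265491-77286432) was in the glial set, with 0.963 to 5.24 CPM (median 2.46) in neurons, 13.3, 17.5 and 20.0 CPM in astrocytes and 42.4, 42.9 and 35.3 CPM in microglia. Ctdsp1, a phosphatase that works with REST, was at 3.47 to 8.35 CPM (median 5.55) in neurons, 109.8, 104 and 122 CPM in astrocytes and 123, 118 and 112 CPM in microglia, a log2 fold change of 4.34 ± 0.063, and its glial libraries overlapped (-0.071 ± 0.097, adjusted p = 0.518, edgeR). Of 22 genes listed as the REST complex and other repressors of neuronal genes, 15 were higher, 6 lower and 10 in the glial set (median 1.33). Besides the Zfp36 family, these included Ctdsp2 (1.41 ± 0.032), Hes1 (2.56 ± 0.092), a Notch target, and Id1 (4.76 ± 0.13) and Id3 (5.47 ± 0.13), which block basic helix-loop-helix factors. Over the microglial libraries, Id1 and Id3 had the same order as the fibroblast and mural marker sums. Over the astrocyte libraries Id3 had the order of these sums too, and Id1 did not. The part of such RNA in the levels of Id1 and Id3 was not tested. Hdac2, a histone deacetylase, was the 1 member of this list in the neuronal set (-0.86 ± 0.032). The corepressor genes Rcor1, Rcor2, Rcor3, Sin3a, Hdac1, Kdm1a and Ehmt2 all overlapped between the classes, so none was in the glial set. Kdm1a was at 70.8 to 97.2 CPM in neurons, 62.5 to 71.6 in astrocytes and 61.9 to 65.3 in microglia. Hdac1 went the other way, at 13.4 to 55.6, 46.3 to 51.6 and 77.8 to 84.0 CPM.

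A compact core of the RE1 element, CAGCACC and GGACAG with any 2 bases between them, was found on either strand in 9 of 12572 promoter windows (0.0716%), in 0 of the glial set and in 2 of the neuronal set. Those were Fbll1, a relative of the nucleolar methyltransferase fibrillarin (log2 fold change -2.91), and Osbp2, a lipid transfer protein (-2.42). They are shown 5′ to 3′ on the minus strand with the core, which reads as its reverse complement here, in capitals, 188 bases before the RefSeq start for Fbll1 (chr11:35799033-35799097) and 139 before that for Osbp2 (chr11:3774768-3774832, GRCm38.p6).
Fbll1: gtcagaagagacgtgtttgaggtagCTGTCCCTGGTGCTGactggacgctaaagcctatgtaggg
Osbp2: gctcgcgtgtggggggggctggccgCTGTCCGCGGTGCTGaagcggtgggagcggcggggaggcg
The window covers only the promoter, and no match there says nothing of elements elsewhere in a gene.

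Of 23 RNA-binding factors known from neurons or most cells, 20 were lower, 3 higher and 12 in the neuronal set (median -1.82). Srrm4, which drives the inclusion of neuronal microexons, was at 55.9 to 188 CPM (median 76.5) in neurons, 12.9, 12.2 and 15.1 CPM in astrocytes and 10.7, 13.3 and 12.9 CPM in microglia. The glial libraries of Srrm4 overlapped (adjusted p = 0.228, edgeR). Rbfox1 had a log2 fold change of -3.16 ± 0.048, and Elavl2, at -3.50 ± 0.084, overlapped, with a wide range among neurons of 9.09 to 459 CPM (median 133). Ptbp1, which represses neuronal exons in other cells, was the 1 member in the glial set, with 5.81 to 18 CPM (median 9.84) in neurons, 62.3, 63.8 and 73.3 CPM in astrocytes and 242, 247 and 224 CPM in microglia.

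Subunits of the BAF chromatin remodelling complex, which exchanges several subunits as neurons mature, gave a median of -0.21 over 28 genes, with 10 higher, 14 lower, 1 in the glial set and 9 in the neuronal set. Actl6b, the neuronal actin-like subunit, was in the neuronal set (-1.87 ± 0.033) and Actl6a, its counterpart in other cells, in the glial set (1.78 ± 0.049). The neuronal subunits Ss18l1 (-1.85 ± 0.044) and Dpf1 (-1.33 ± 0.040) were also in the neuronal set, while their counterparts Ss18 (1.40 ± 0.038) and Dpf2 (0.53 ± 0.034) were called higher with overlapping libraries. Several core subunits were in the neuronal set by smaller amounts, as for Smarca4 (-0.48 ± 0.037), Smarcc2 (-0.63 ± 0.033) and Smarcd1 (-0.91 ± 0.031). Others overlapped between the classes, among them Smarcb1, Smarcc1, Smarce1 and Arid1a. For Smarcc1, Smarce1 and Arid1a every microglial library lay above every neuronal library (127 to 130 against 46.7 to 99.9 CPM for Smarce1). For Smarcb1 every microglial library lay below (70.8 to 72.4 against 74.0 to 103 CPM).

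This kind of exchange was followed in 30 pairs of a gene known mainly from neurons and a widely expressed relative, using TPM, which is corrected for length. The gene known from neurons was in the neuronal set in 22 pairs and called lower in 28. Its relative was in the glial set in 12 pairs, called higher in 23, lower in 5 and neither in 2. Both held in 10 pairs, among them Snap25 and Snap23, Vamp2 and Vamp3, Dnm1 and Dnm2, Tubb3 and Tubb6, Cyfip2 and Cyfip1, Wasf1 and Wasf2, Gng3 and Gng5, Actl6b and Actl6a, and Ptbp2 and Ptbp1. The neuronal gene as a percent of the pair was lower in every glial library than in every neuronal library for 22 pairs and overlapped for 8.

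Of the 30 pairs, the widest gap between glial and neuronal means was in G protein gamma subunits. Gng3 was 93.9% to 99.8% of the pair in neurons, but 19.9 ± 1.70% (SD, n = 3) in astrocytes and 10.3 ± 0.666% in microglia. Gng5, the other member, was at 0.0902 to 2.20 CPM (median 1.32) in neurons, 63.0, 64.5 and 64.7 CPM in astrocytes and 68.4, 69.7 and 68.1 CPM in microglia. For Cyfip2 and Cyfip1, subunits of the WAVE complex that drives branched actin, Cyfip2 was 87.5% to 97.2% in neurons, 42.0 ± 3.85% in astrocytes and 9.27 ± 0.884% in microglia. Wasf1, of the same complex, was 97.2% to 99.6% of its pair in neurons and differed between the glial types, at 85.1 ± 1.60% in astrocytes and 12.2 ± 0.101% in microglia.

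For the SNARE pair, Snap23 was at 1.45 to 3.11 CPM (median 2.46) in neurons, 18.1, 19.7 and 16.9 CPM in astrocytes and 47.7, 46.8 and 42.1 CPM in microglia. Even so, Snap25 was still 96.3 ± 0.271% of the pair in astrocytes and 78.0 ± 1.49% in microglia, against 99.7% to 100.0% in neurons. The neuron marker residue given above applies to such values, and its part was not tested. For the enolases, Eno2 was 58.5% to 73.5% of the pair in neurons, 13.5 ± 1.37% in astrocytes and 23.9 ± 0.548% in microglia, so that Eno1 was the major form in both glial types. Dynamin differed between them, with Dnm1 at 69.7 ± 2.65% in astrocytes and 32.1 ± 1.31% in microglia, and the splicing repressors likewise, with Ptbp2 at 64.7 ± 2.12% and 11.9 ± 1.23%.

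Not all pairs divided by class. Cerebellar granule cells lay among glia for Pak3 and Pak2 (Pak3 9.59 ± 0.153% of the pair, against 80.2 ± 0.823% in layer V neurons and 18.3 ± 1.45% in astrocytes). Cerebellar granule cells were below both glial types for the protein kinase A subunits Prkar2b and Prkar2a, with Prkar2b at 6.8 ± 0.704% in cerebellar granule cells, 23.0 ± 2.16% in microglia and 28.8 ± 2.16% in astrocytes. Both members were in the neuronal set for Mapk10 and Mapk9, which are JNK kinases (-2.47 and -1.67), and for Prkar1b and Prkar1a (-2.59 and -0.98).

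**Figure D4:**
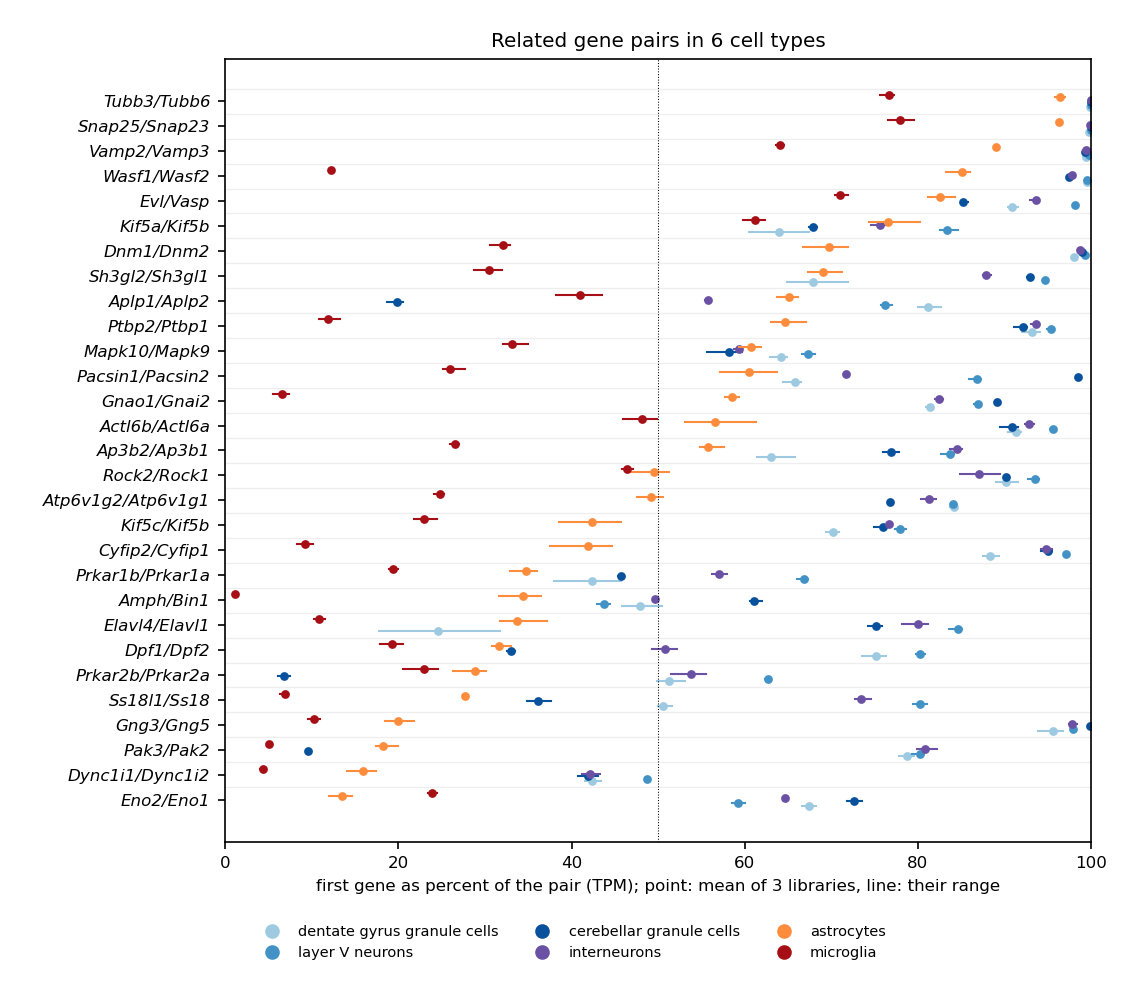
The gene known mainly from neurons as a percent of the summed TPM of the pair, in each of 6 cell types (point, mean of 3 libraries, and line, their range), with pairs ordered by the astrocyte value and 1 pair not reported here left out. Neuronal points reach the right edge for some pairs (Snap25/Snap23, Gng3/Gng5) and sit near the middle for others (Dync1i1/Dync1i2), microglia lie furthest left in most, and pairs such as Kif5a/Kif5b and Pak3/Pak2 overlap between classes.

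Lysosomal genes were mostly in the glial set, and 11 of 20 genes of the proton pump that acidifies lysosomes and synaptic vesicles were in the neuronal set. Of 41 lysosomal hydrolases and membrane proteins, 36 were higher, 4 lower and 30 in the glial set, with a median of 2.28. Lamp1, a major lysosomal membrane protein, was at 146 to 250.4 CPM (median 187) in neurons, 1022, 1037 and 1087 CPM in astrocytes and 910.0, 954 and 834 CPM in microglia. Tpp1, a peptidase, was at 29.7 to 66.9 CPM (median 44.8) in neurons, 216, 211 and 228 CPM in astrocytes and 257, 257 and 235 CPM in microglia. For both genes the glial types lay within 2-fold of each other. Cd63, a tetraspanin of late endosomes, was higher in astrocytes (5.12) than in microglia (4.18).

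The cathepsin D gene Ctsd was much higher in microglia, with 122 to 319 CPM (median 225) in neurons, 575, 551 and 602 CPM in astrocytes and 9223, 9625 and 9230.4 CPM in microglia. Laptm5, which is known from blood-derived cells, was at 0.0451 to 1.72 CPM (median 1.17), 13.8, 14.0 and 11.9 CPM and 4304, 4430.4 and 4097 CPM in the same order, a log2 difference of -8.34 between astrocytes and microglia. Laptm5 thus met the rule with an astrocyte level close to the carry-over measured on microglial markers, described further on, and Ctsd with one well above it. The 4 genes called lower were Mcoln1, a lysosomal calcium channel (-0.42 ± 0.033), the glycosidases Gaa (-0.71 ± 0.046) and Gla (-0.44 ± 0.050), and the sialidase Neu1 (-0.49 ± 0.029), and of these Mcoln1 was in the neuronal set. For Gaa and Gla the sign turned, to 0.050 and 0.40, with astrocytes against the 3 neuronal types of batch 1 alone.

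Of 20 tested subunits and accessory proteins of the vacuolar ATPase, in contrast, 14 were lower, 5 higher, 11 in the neuronal set and 3 in the glial set (median -1.26). Atp6v1a, the catalytic subunit of the cytosolic part, was at 555 to 1152 CPM (median 769) in neurons, 209, 238 and 233 CPM in astrocytes and 78.5, 81.1 and 74.0 CPM in microglia. Forms of the membrane subunit a moved in opposite directions. Atp6v0a1, the form of synaptic vesicles, was at 423 to 788 CPM (median 666) in neurons, 272, 278 and 284 CPM in astrocytes and 185, 208 and 207 CPM in microglia. Atp6v0a2 was at 37.1 to 54.0 CPM (median 41.7), 208, 194 and 229 CPM and 172, 182 and 182 CPM in the same order, and Tcirg1, which encodes the third form, was at 0.316 to 4.45 CPM (median 1.68), 16.7, 15 and 14.8 CPM and 99.9, 107 and 102 CPM. Atp6v0a1 was lower in both glial types and the other forms higher. Subunit e showed the same division, with Atp6v0e2 in the neuronal set (-2.19 ± 0.034) and Atp6v0e in the glial set (3.30 ± 0.047), and for subunit G, Atp6v1g2 was in the neuronal set (-2.87 ± 0.039) and Atp6v1g1 was called higher by a small amount (0.17 ± 0.031) that turned to -0.044 against layer V neurons alone.

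**Figure D5:**
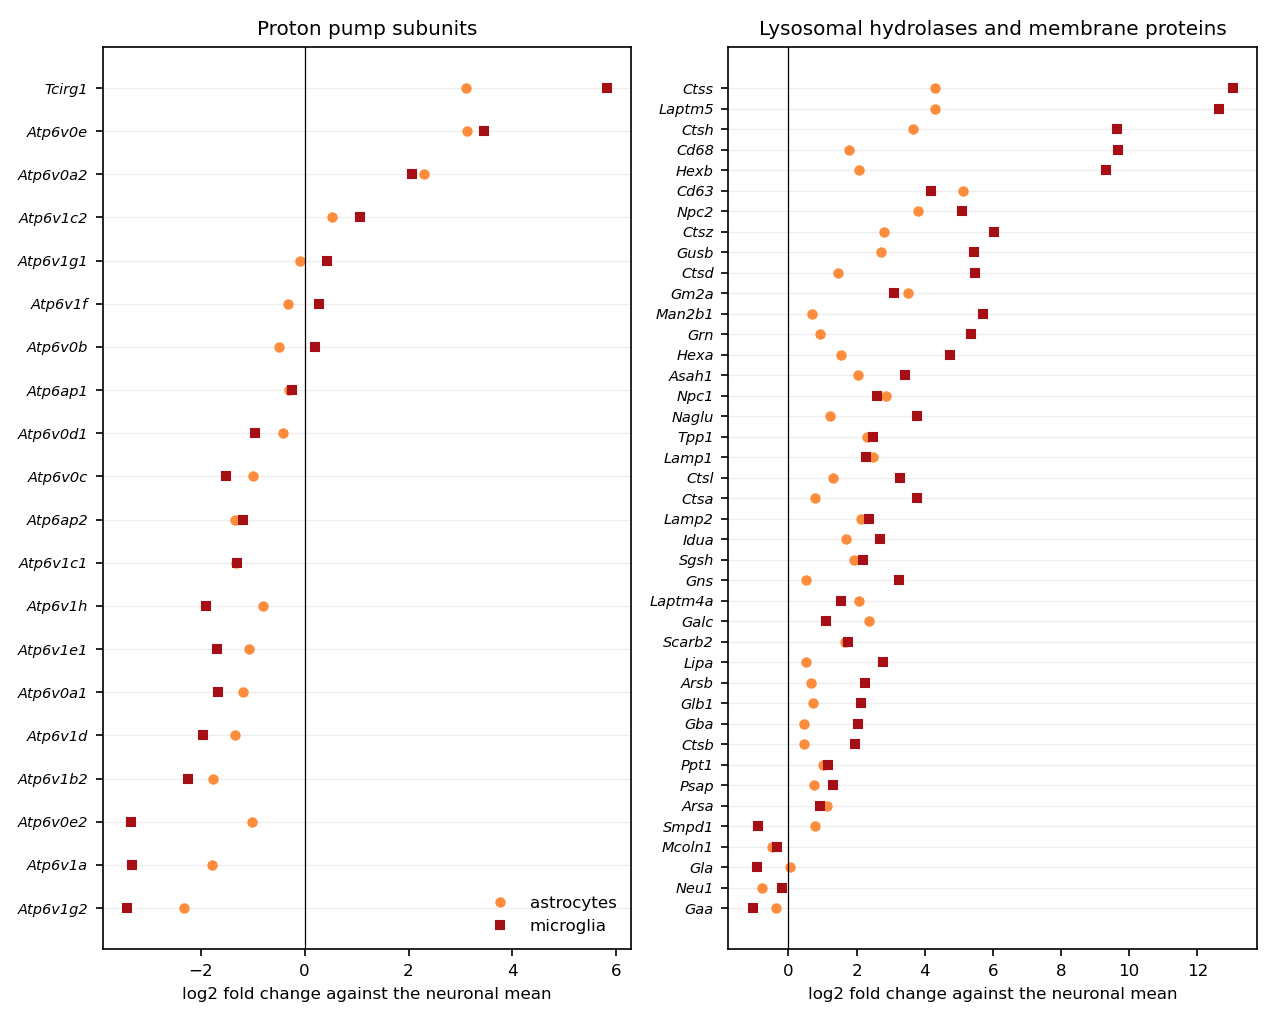
Log2 fold change of astrocytes (circles) and microglia (squares) over the mean of 4 neuronal types for 20 proton pump genes (left) and 41 lysosomal genes (right), each sorted by the glial mean. Of the pump genes 14 were called lower and of the lysosomal genes 36 higher, and most lysosomal squares lie further right than the circles.

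Many genes of both lists are known targets of TFEB-type factors, which bind the CLEAR element. Its core TCACGTGA was found on either strand in 233 of 12572 promoter windows (1.85%), in 36 of the glial set (1.90%) and in 45 of the neuronal set (2.67%). It stood before the start of genes of both sets, shown 5′ to 3′ with the core in capitals (GRCm38.p6, RefSeq): Ctsd (chr7:142387894-142387951, minus strand, 99 bases before the start) and Ctsa (chr2:164833735-164833772, plus strand, 13 bases) of the glial set, and Atp6v1a (chr16:44139359-44139416, minus strand, 132 bases) and Mcoln1 (chr8:3500448-3500505, plus strand, 46 bases) of the neuronal set.
Ctsd: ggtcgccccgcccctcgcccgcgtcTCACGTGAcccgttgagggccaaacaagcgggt
Ctsa: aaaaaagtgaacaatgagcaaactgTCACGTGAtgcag
Atp6v1a: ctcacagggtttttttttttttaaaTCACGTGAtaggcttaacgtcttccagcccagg
Mcoln1: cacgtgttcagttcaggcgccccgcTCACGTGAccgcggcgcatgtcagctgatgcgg
The same letters thus preceded genes with log2 fold changes of 3.46, 2.28, -2.56 and -0.42.

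Genes for engulfment were largely in the glial set, with 17 of 27 there, 23 called higher, 4 lower and a median of 2.94. The 17 include Trem2, Tyrobp, Dock2 and Rac2, whose astrocyte levels lay within the carry-over range of single microglial markers, described further on. Rac2 was at 0.911 to 1.25 CPM in astrocytes and 162 to 181 CPM in microglia. The microglial level of Axl lay within the range of single astrocyte markers. The part of carry-over in these values was not tested. Besides Mertk, the related receptor Axl was at 0.609 to 5.58 CPM (median 2.22) in neurons, 437, 423 and 474 CPM in astrocytes and 25.5, 22.1 and 28.8 CPM in microglia. Their bridging ligand Pros1 was at 0.0815 to 1.86 CPM (median 0.876), 32.1, 35.1 and 35.7 CPM and 333, 339 and 278 CPM in the same order. Tyro3, the third receptor of this family, was called lower at -0.89 ± 0.099 with overlapping libraries.

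The glial types differed in which parts of this system were high. Mfge8, which links phosphatidylserine on dying cells to integrins, was 8.48 log2 units above neurons in astrocytes and 3.21 in microglia. Itgb5, one of its receptors, was 5.12 above in astrocytes and 8.47 in microglia. Dock1 was 6.28 and 4.29 above, and Dock2, the form of blood-derived cells, 3.38 and 10.76. Dock2 was at 1.31 to 1.47 CPM in astrocytes and 209 to 243 CPM in microglia. Mfge8 was at 46.6 to 52.7 CPM in microglia and 1843 to 2039 CPM in astrocytes. The lower level of each lay within the carry-over range of single markers, described further on, and the part of carry-over was not tested. The microglial receptor Trem2 and its signalling adaptor Tyrobp were in the glial set although astrocytes had only 3.55, 2.87 and 2.22 and 2.48, 2.56 and 2.02 CPM, against 744, 799 and 736 and 715, 706 and 671 CPM in microglia. Cd47, the signal that inhibits engulfment, was in the neuronal set at 201 to 519 CPM (median 219) in neurons, 129.9, 135 and 131 CPM in astrocytes and 103, 109 and 101 CPM in microglia, and its receptor Sirpa was in the glial set (1.54 ± 0.030).

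Of 33 TGF-beta and BMP pathway genes, 24 were higher, 5 lower, 9 in the glial set and 1 in the neuronal set (median 1.11). Among ligands, Tgfb1 was 8.48 log2 units above neurons in microglia and 2.45 in astrocytes, and Ltbp1, which holds latent TGF-beta in the matrix, was 6.49 above in astrocytes and 2.43 in microglia. The receptors Tgfbr1 and Tgfbr2 were called higher (4.42 ± 0.068 and 4.75 ± 0.062) with overlapping libraries, and the receptor Acvr1b was in the neuronal set (-1.69 ± 0.034). The inhibitory Smad6 was at 0 to 0.520 CPM (median 0.208) in neurons, 6.32, 5.84 and 5.98 CPM in astrocytes and 7.68, 5.77 and 7.11 CPM in microglia, and its glial libraries overlapped (-0.18 ± 0.19, adjusted p = 0.405, edgeR). Smad6 had the order of the endothelial marker sum in microglia (727, 478 and 629 CPM) but not in astrocytes, and the part of such RNA was not tested.

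All 4 Notch receptors were in the glial set, with log2 fold changes of 4.89 ± 0.094, 4.18 ± 0.052, 4.76 ± 0.15 and 4.06 ± 0.13 for Notch1 to Notch4. Notch1 was at 0.880 to 15 CPM (median 3.30) in neurons, 148, 135 and 181 CPM in astrocytes and 64.5, 56.9 and 56.0 CPM in microglia. Of 28 Notch pathway genes, 23 were higher, 2 lower, 10 in the glial set and 1 in the neuronal set (median 1.29). The glial set also held the ligand Dll4 (2.57 ± 0.13), the sheddase Adam17 (3.79 ± 0.053) and the target Heyl (5.77 ± 0.12), while Numbl, an inhibitor of Notch, was in the neuronal set (-1.79 ± 0.055). Endothelial and mural cells are known to express Notch3, Notch4, Dll4 and Heyl, and their marker sums were higher in every glial library than in every neuronal library (77.8 to 727 CPM against 4.87 to 66.7 for endothelial, 195 to 439 against 2.43 to 39.0 for mural markers). Their part in these values was not tested. The target Hes5 was 6.50 above neurons in astrocytes and 1.02 in microglia, and overlapped.

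Of 22 Hippo pathway genes, 20 were higher, 1 lower, 8 in the glial set and 0 in the neuronal set (median 1.24). Wwtr1, the coactivator known as TAZ, was at 0.387 to 2.52 CPM (median 1.75) in neurons, 88.1, 92.9 and 95.6 CPM in astrocytes and 11.8, 10.8 and 12.0 CPM in microglia, and its relative Yap1 was called higher (3.64 ± 0.063) with overlapping libraries. Their DNA-binding partners Tead2 (3.73 ± 0.19) and Tead3 (4.91 ± 0.15) and the target Ccn1 (5.86 ± 0.21) were in the glial set. By the test between glial types, astrocytes were higher for 14 of the 22 genes and microglia for 8, again without a background by direction.

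Of 38 genes of cytokine, JAK-STAT and NF-kappaB signalling, 36 were higher, 2 lower and 19 in the glial set (median 2.07). Microglia were higher than astrocytes for 31, a count by direction without a background over all genes. Stat5a was at 0.0924 to 0.732 CPM (median 0.352) in neurons, 9.84, 9.83 and 10.9 CPM in astrocytes and 16.6, 18.2 and 15.8 CPM in microglia. Stat3 (1.46 ± 0.035), the shared receptor chain Il6st (1.81 ± 0.053), the NF-kappaB subunits Rela (2.72 ± 0.036) and Nfkb2 (4.03 ± 0.11) and the interferon receptor chain Ifnar1 (0.95 ± 0.037) were in the glial set by differing amounts. Ikbkg, the regulatory subunit of the kinase that activates NF-kappaB, was called lower by a small amount (-0.18 ± 0.033).

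Of 32 integrins, ERM proteins and actin cross-linkers, 28 were higher, 3 lower and 14 in the glial set (median 2.23). Itgb1, the common integrin beta chain, was at 12.5 to 34.7 CPM (median 22.5) in neurons, 128, 143 and 138 CPM in astrocytes and 342, 346 and 311 CPM in microglia. Tln1, which links integrins to actin, was in the glial set (4.21 ± 0.067), while its relative Tln2 was called lower (-0.62 ± 0.033). Vim, an intermediate filament of non-neuronal cells, was at 1.49 to 7.58 CPM (median 2.72) in neurons, 86.9, 94.9 and 107 CPM in astrocytes and 64.4, 50.1 and 70.1 CPM in microglia. Vim, Itgb1 and Tln1 are also expressed by vascular cells, whose markers were higher in glial libraries as given above.

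Of 24 tetraspanins and annexins, 18 were higher, 5 lower and 12 in the glial set (median 2.83). Cd9 was at 0.316 to 10.5 CPM (median 3.78) in neurons, 91.6, 93.5 and 98.7 CPM in astrocytes and 355, 383 and 350.5 CPM in microglia, and Cd81 at 102 to 306 CPM (median 153), 729, 768 and 855 CPM and 1267, 1304 and 1222 CPM. The annexins Anxa2 (4.09 ± 0.14) and Anxa5 (3.40 ± 0.051) were in the glial set, and the tetraspanin Tspan5 was in the neuronal set (-1.65 ± 0.032).

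Of 31 genes of cell cycle entry, 23 were higher, 6 lower and 13 in the glial set (median 1.34). Several of these were low in glia too: Mki67, a proliferation marker, was at 0 to 1.09 CPM (median 0.344) in neurons, 7.10, 5.55 and 9.33 CPM in astrocytes and 1.63, 1.48 and 2.70 CPM in microglia, and Top2a, a topoisomerase of dividing cells, at 0.113 to 1.27 CPM (median 0.214), 7.59, 8.19 and 12.3 CPM and 2.65, 2.06 and 4.04 CPM. Both were higher in astrocytes than in microglia. Mcm3, a subunit of the replication helicase, was the reverse, at 8.24, 8.64 and 11.5 CPM in astrocytes and 53.3, 57.3 and 50.5 CPM in microglia against 0.166 to 2.34 CPM (median 0.799) in neurons. Marker sums of oligodendrocyte precursors were 316 to 344 CPM in astrocytes and 77.1 to 82.2 CPM in microglia. The part of such RNA in the levels of Mki67 and Top2a was not tested. Ccne2, a cyclin of the transition into S phase, was in the neuronal set (-2.25 ± 0.13).

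Levels of marker genes in the wrong cell type were set beside both sets as a measure of carry-over of RNA between the labelled cell types. Summed over 12 microglial markers, astrocytes had 0.322% of the microglial level (single markers 0.197% to 0.886%), and over 10 astrocyte markers microglia had 2.17% of the astrocyte level (1.34% to 10.3%, the highest for Gjb6). In the glial set, 16 genes had an astrocyte level at or under 0.322% of the microglial level, 32 a microglial level at or under 2.17% of the astrocyte level, and 2557 (98.2%) were above both. Against the highest single marker in each direction, 2331 (89.5%) were above both. RNA of other cells present in both glial types is not covered by this measure. Summed over endothelial, mural and blood markers, astrocytes had 14.7%, 51.1% and 891% of the microglial level. Since the rule asks only for order, 11 of 12 microglial markers and 6 of 10 astrocyte markers were themselves in the glial set. In the neuronal set, 2131 genes (91.7%) stood above the neuron marker residue in both glial types, and 61 (2.62%) stood at or under it in both. Against the highest single neuron marker, 380 genes (16.3%) were at or under it in astrocytes and 535 (23.0%) in microglia.

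Genes of the mitochondrial genome were mostly placed with glia. Of 13 protein-coding genes tested, 8 were in the glial set and 0 in the neuronal set. The others, mt-Atp8, mt-Atp6, mt-Co3, mt-Nd3 and mt-Nd4l, overlapped between the classes. Log2 fold changes were 0.84 to 2.55, and that of mt-Nd3 did not pass the test (0.97, adjusted p = 0.0747, edgeR). All genes encoded in the mitochondrion took 0.753% to 0.935% of counts in astrocytes, 0.574% to 0.789% in microglia and 0.0642% to 0.424% in neurons. Mitochondrial mRNA is made inside mitochondria and is not read by the tagged cytosolic ribosome, and the part of such RNA in the other members of the set was not tested.

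Astrocyte replicate 2 and 1 replicate of each of 3 neuronal types had a repeat library in the batch that held microglia and interneurons. The batch 1 libraries of the same replicates already had to show the order for a gene to enter a set, so the repeats describe technical agreement and are no independent support. The astrocyte repeat lay above all 3 neuronal repeats for 2575 of 2605 glial set genes (98.8%), in 1 astrocyte library and no microglial library, and below them for 2277 of 2325 neuronal set genes (97.9%). Members of the neuronal set spanned more of the genome, with a median of 30.9 kb per protein-coding gene against 19.8 kb in the glial set and 24.2 kb over all protein-coding genes tested. Spans over 100 kb were found for 19.9%, 9.17% and 14.7%. The X chromosome held 5.85% of protein-coding members of the neuronal set, 2.76% of the glial set and 3.46% of all.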

How the data were processed

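Ribosome-bound mRNA was immunoprecipitated with an antibody to the HA tag on Rpl22 and sequenced as stranded paired-end libraries. Per the labels and the study's methods, adapters were removed with cutadapt 3.5 and kallisto 0.46.2 assigned reads to the transcripts of GENCODE M24 (GRCm38). The values the authors deposited are kallisto's estimated counts and TPM per transcript. Estimated counts were summed per gene and rounded to whole numbers, and gene positions were taken from GENCODE M21 (GRCm38). Of 22 libraries, 18 were used, with the batch 1 library where a replicate had a library in each batch (4 replicates). Deposited TPM, summed per gene, served for pairs of related genes and for the minimum of 10 TPM.

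Genes were filtered with filterByExpr, scaled with TMM and fitted with edgeR 4.0.16 (quasi-likelihood, R 4.3.3) over 6 cell types, with Benjamini-Hochberg adjustment over all genes tested and a threshold of 0.05. Contrasts were the glial against the neuronal mean, the 8 pairs of a glial and a neuronal type, and astrocytes against microglia. The rule compared TMM-scaled CPM. Depth was 38270477 to 71440915 estimated counts per library, and kallisto's splitting of reads between near-identical transcripts makes paralogs such as Hba-a1 and Hba-a2 uncertain. The 15 genes named first from each set had the widest gap between the nearest types, among protein-coding genes with a mean of at least 10 TPM in each type of the higher class. Others were named by role from the lists. A few genes counted in the sets, lists and pairs are not reported here by name. The members and lists were chosen with earlier results of these data known. Fbll1, Osbp2 and the promoter stretches were chosen for their motifs. The fit was also tested on simulated data.

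Per the labels, replicate 1 was female and replicate 3 male in every cell type, apart from interneurons replicate 1, which pooled the sexes, so replicate number goes with sex. Beyond that, nothing in the labels ties the same number across cell types, and the numbers were not taken as pairs: deviations from the cell type means correlated by 0.115 on average for 45 pairs with the same number (-0.147 to 0.351) and by -0.0577 for 90 pairs with different numbers. Alternatives were DESeq2 1.42.0, scaling by library size, TPM for the rule, other filters, batch, layer V neurons alone, a replicate block and leaving out each library.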

Additional observations from a re-analysis of the deposited data

Results flagged for a closer look

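Although the rule places astrocytes and microglia on the same side of neurons, the levels of most members differed between these glial types. By edgeR's contrast of astrocytes with microglia (adjusted p of at most 0.05), 2135 genes of the glial set and 1878 of the neuronal set differed, 82.0% and 80.8% of their members beside 76.1% of all genes tested. In the glial set, 1372 of them were higher in microglia and 763 in astrocytes, and in the neuronal set 326 and 1552. Counts by direction were not made over all genes. Summed neuron markers were likewise higher in astrocytes (1003 to 1307 CPM) than in microglia (491 to 550 CPM), and the part of this residue was not tested. In the 18 libraries, 4013 of 4930 members of both sets (81.4%) differed. Microglia lay in batch 2 and astrocytes in batch 1, and the part of batch in this share was not tested. A comparison within batch 2 rests on 1 astrocyte library, the repeat, and on another set of genes without overlap. Its share is therefore not set beside that of the 18 libraries.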

How the results depend on the processing

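Counts of genes in both sets, of genes called by the contrast of means, of genes called in all 8 pairs and of members that differed between astrocytes and microglia stayed within 1.5 times under DESeq2, library-size scaling, other filters, the batch 2 libraries, a batch term, the comparison within batch 2 and the replicate block. The exceptions use fewer neuronal or glial libraries. Within batch 1 (astrocytes against 3 neuronal types), 4969 genes were higher and 3444 lower in all pairs, and 5155 lay above without overlap. Against layer V neurons alone, 5712 and 6019 genes were called in all pairs, 5812 and 6220 did not overlap, and 8986 of these differed between glial types. By TPM the glial set had 1943 genes and the neuronal set 2661, and they held 73.3% and 92.6% of the members by CPM. Leaving out 1 library at a time gave 9196 to 9855 genes higher and 7451 to 7798 lower, 2347 to 2518 and 2249 to 2437 in all pairs, 2501 to 2692 and 2342 to 2591 without overlap, and 3912 to 4149 that differed between glial types. No value for astrocytes against microglia could be had within batch 1, which holds no microglia.

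With the replicate number as a block, 9578 genes were higher and 7451 lower in glia, 2540 and 2274 in all pairs, and 4000 members differed between glial types. The block changed no call among the 248 genes followed.

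Of these 248 genes, 232 kept direction and call under every alternative. The sign turned within batch 1 for Ap3b1 (-0.052), Aplp1 (0.73), Aplp2 (0.49), Bin1 (-1.58), Dync1i2 (-0.29), Evl (-0.51), Gaa (0.050), Gla (0.40) and Gnao1 (1.77). Within batch 2 it turned for Dync1i2 (-0.034) and Kif5a (-0.21), and with a batch term for Dync1i2 (-0.020) and Kif5a (-0.034). Against layer V neurons it turned for Atp6v1g1 (-0.044), Eno1 (-0.17), Evl (-0.094), Kif5a (-0.20) and Sh3gl1 (0.67). Dync1i2 also turned with the batch 2 libraries (-0.011), without a filter (-0.001) and without single libraries (-0.029 to 0.031 over all 18 such fits), and Kif5a without astrocytes replicate 1 (-0.045, within a range of -0.045 to 0.084). Both were near 0 in all 18 libraries. The cause was not tested in any of these cases. Depth limits the precision of low genes, such as Mki67 and Smad6 in neurons.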

Other observations

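Neuronal types were not equally far from glia. Over the members of the glial set, levels ranged over a median of 1.44 log2 units between the lowest and highest neuronal type, and over 0.90 in the neuronal set. Interneurons or dentate gyrus granule cells were the nearest type for most members of either set, and cerebellar granule cells for the fewest (437 and 444). Interneuron libraries carried 3793 to 3975 CPM of oligodendrocyte markers, against 174 to 561 in the other neuronal types, and the part of such RNA in this order was not tested.

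Precursor, perivascular and choroid plexus markers were summed as well. Markers of oligodendrocyte precursors gave 316 to 344 CPM in astrocytes, 176 to 203 in interneurons and 77.1 to 82.2 in microglia, with 1 of 6 in the glial set. Markers of perivascular macrophages gave 17.3 to 24 CPM in microglia and 2.79 to 3.93 in astrocytes, with 2 of 5 in the glial set, and none of 4 choroid plexus markers was in either set.

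The repeat library of layer V neurons replicate 1 is labelled male and its batch 1 library female. Xist, a transcript of the inactive X chromosome, was at 12.9 CPM in the batch 1 library and 12.3 CPM in the repeat, and the Y-linked Ddx3y was at 0.146 and 0.0418 CPM.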
